A study of Mus musculus with 61 samples.

Results

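The zona pellucida, ovastacin and egg surface genes described here are 7 mouse genes chosen by name: Zp1, Zp2 and Zp3, which encode glycoproteins of the egg coat, Astl, which encodes the protease ovastacin, Izumo1r, which encodes the egg receptor JUNO, and Cd9 and Cd81, which encode tetraspanins of the egg surface. All 7 were found by symbol among the 24551 genes of a table of oocytes and timed embryos and among the 22911 genes of a table of Klf17 genotypes. The first table holds 30 libraries, 3 each from wild-type (WT) MII oocytes and from WT embryos of 9 labelling windows, written by their hours post insemination (hpi) as 0-6hpi, 6-12hpi, 12-18hpi, 18-24hpi, 24-30hpi, 30-36hpi, 48-54hpi, 70-76hpi and 90-96hpi. Windows up to 30-36hpi follow each other without a gap. Later windows leave hours between them unsampled, so steps between consecutive groups span more time there. Embryos came from in vitro fertilisation of eggs of superovulated females, and each sample held 10 embryos, so a library is a pool. Every library used, MII oocytes included, is labelled as treated with 4-thiouridine (4SU), a uridine analog that enters newly made RNA, at 2 mM for 6 h in the embryo protocol. In the earliest window the 4SU was already present while sperm and cumulus-oocyte complexes were incubated together. The other table holds 11 libraries of embryos at a stage labelled M2C, also with 4SU: 3 control (ctrl, genotype WT), 3 labelled KO (Klf17 KO), 3 maternal KO (mKO) and 2 paternal KO (pKO). Strain, ages and the deleted part of Klf17 are not given in the sources used here.

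The zona pellucida is the extracellular coat of the egg. In the mouse it is built from fibres of ZP2 and ZP3 that are cross-linked by ZP1, and all of it is made by the growing oocyte. After a sperm has fused, cortical granules release ovastacin, which cleaves ZP2 so that sperm no longer bind the coat. On the egg membrane JUNO is held by a glycosylphosphatidylinositol (GPI) anchor and binds IZUMO1 of the sperm. CD9, together with the related CD81, is needed for efficient fusion of egg and sperm, and unlike the coat proteins tetraspanins are made by many cell types. Maternal RNA is broken down after fertilisation while the embryo begins its own transcription.

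RefSeq (GRCm38.p6) places Zp1 at chr19:10914296-10920601, Zp2 at chr7:120126762-120145291, Zp3 at chr5:135980105-135988624, Astl at chr2:127338639-127357655, Izumo1r at chr9:14885814-14903951, Cd9 at chr6:125460266-125494760 and Cd81 at chr7:143052750-143067930. Cd9 overlaps the annotated genes Gm26728 and Gm28809, and Cd81 overlaps R74862. Since the counted strand is not stated, reads of these overlapping genes cannot be told apart. The reference table of promoters held 5 of the 7 genes, and the 250 bases before an annotated start were searched. For Zp3, Cd9 and Cd81 these windows are printed on the strand of the gene, because both genes that fell and genes that rose over the time course are among them. The Izumo1r window lies within the annotated gene for 184 of its 250 bases and that of the inner Astl start for all 250, so for these the 30 bases around the E-box nearest the start are printed. Capitals mark the E-box letters CANNTG, which read the same class of site on either strand. The E-box is the site that FIGLA, an oocyte helix-loop-helix factor known to drive the zona genes, binds together with its partner.
Zp3, chr5:135979855-135980104, + strand: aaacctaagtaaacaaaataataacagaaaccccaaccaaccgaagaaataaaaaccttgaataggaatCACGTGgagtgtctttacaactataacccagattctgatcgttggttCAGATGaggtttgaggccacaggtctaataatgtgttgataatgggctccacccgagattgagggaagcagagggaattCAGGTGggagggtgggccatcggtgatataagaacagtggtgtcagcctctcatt
Astl, inside the annotated gene, chr2:127341565-127341594, + strand: gttgggaggctgCAGGTGtgggctggagaa
Izumo1r, inside the annotated gene, chr9:14903807-14903836, - strand: ggcggctctccaCACCTGtagctcatagaa
Cd9, chr6:125494761-125495010, - strand: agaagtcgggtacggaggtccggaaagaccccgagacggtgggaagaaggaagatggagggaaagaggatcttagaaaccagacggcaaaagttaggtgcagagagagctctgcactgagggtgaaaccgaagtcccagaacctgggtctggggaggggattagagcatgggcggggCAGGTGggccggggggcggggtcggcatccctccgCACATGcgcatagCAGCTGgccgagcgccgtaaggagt
Cd81, chr7:143052500-143052749, + strand: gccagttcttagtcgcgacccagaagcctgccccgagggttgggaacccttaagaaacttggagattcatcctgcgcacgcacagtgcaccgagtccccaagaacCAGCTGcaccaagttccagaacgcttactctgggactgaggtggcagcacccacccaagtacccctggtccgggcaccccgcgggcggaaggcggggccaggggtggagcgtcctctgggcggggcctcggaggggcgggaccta

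The Zp3 window holds CACGTG at 181, CAGATG at 134 and CAGGTG at 55 bases before the start. The window of the inner Astl start (chr2:127341386-127341635, + strand) holds 3 copies of CAGGTG, at 109, 83 and 59 bases before its start, whereas the window of the upstream annotated Astl start (chr2:127338389-127338638, + strand) holds no CANNTG. The Izumo1r window (chr9:14903768-14904017, - strand) has CACCTG, the reverse complement of CAGGTG, at 57 bases before its start, inside the annotated gene. Cd9 has CAGGTG at 73, CACATG at 38 and CAGCTG at 25, and Cd81 has CAGCTG at 145. CANNTG is common: 66.2% of 32851 windows of this length in the same table hold it, and 31.8% hold 2 or more. CAGGTG or CACCTG is held by 17.2% and CACGTG by 6.0%, these being special cases of CANNTG. The sequence CAGGTG was singled out after the windows had been read. The letters GGGCGG or CCGCCC, a GC box on either strand, occur 2 times for Cd9 and 3 times for Cd81, in 0 of the 4 windows of the other genes, and in 32.7% of all windows. CpG dinucleotides number 16 for Cd9 and 16 for Cd81 against 5 for Zp3, 4 and 1 for Astl and 2 for Izumo1r. Of all windows 25.4% have 16 or more and 49.6% have 5 or fewer. These matches describe the letters only.

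Total gene counts ran from 7395193 to 13301570 per library in the time course and from 14080264 to 23018252 in the genotype set. Across genes, r between replicates was 0.960 to 0.988 and 0.887 to 0.956, and every pair differed by more than sampling noise (chi-square over degrees of freedom at least 4.22). The sources do not say how replicates were obtained, so p-values reflect spread between libraries that may be technical. The 10 oocyte markers summed to 11380 to 11416 CPM in MII oocytes, against 124 to 209 CPM at 90-96hpi, while 10 markers of trophectoderm and inner cell mass summed to 233 to 240 and 6046 to 9433 CPM. Of 16 cumulus and granulosa markers, 10 had no read in MII oocytes, including Amh, Fshr, Lhcgr and Foxl2, and the list summed to 137 to 154 CPM there, of which Cyp19a1 held 143 ± 8.82 CPM. The sum was 88.5 to 108 CPM at 0-6hpi, with 11 of 16 detected, and 79.4 to 102 CPM at 6-12hpi, with 10 of 16 detected. At 12-18hpi it was 93.3 to 123 CPM, with 15 of 16 detected and just Amh at 0. At 18-24hpi it was 52.8 to 65.0 CPM, with 13 of 16 detected. Cyp19a1 held most of these sums too, at 98.3 ± 10.2, 86.5 ± 12.9, 97.1 ± 12.2 and 36.4 ± 6.31 CPM in the 4 windows. Sperm markers summed to 2.21 to 4.95 CPM in the oocytes, with 4 of 10 detected. At 0-6hpi they summed to 6.39 to 8.06 CPM, with 6 of 10 detected. Prm1, Prm3, Tnp1 and Tnp2 were at 0 in both groups. The labels do not say if reads with T-to-C conversions were counted apart, so a level may include RNA made before labelling. Levels are those of polyadenylated RNA, and whether a higher level reflects newly made RNA was not tested.

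Levels are CPM, a gene's reads divided by its library's scaled total and multiplied by 1000000, and are given as mean ± SD over 3 libraries unless stated, with RPKM (CPM per kilobase of gene length) where genes are compared with each other. Because CPM is a share of the RNA of pooled embryos, fewer cells with a transcript and less of it per cell cannot be told apart. A gene was called when edgeR's quasi-likelihood test gave a Benjamini-Hochberg adjusted p below 0.05 over all genes tested. Between MII and 0-6hpi 5 of the 7 genes were called, 4 higher and 1 lower, where 21.2% of the 16234 genes tested were called (12.9% higher and 8.28% lower). Their median log2 fold change was 1.18, and that of all tested genes was 0.03. From 0-6hpi to 6-12hpi 5 were called, 1 higher and 4 lower, where 7.66% of the 16234 genes tested were called (4.73% higher and 2.93% lower), with medians of -1.07 and 0.06. The number of genes behind that share, 1243, was 739 without 0-6hpi replicate 3 and 820 without 6-12hpi replicate 1. Just 1 gene, Zp3, was called from 6-12hpi to 12-18hpi, where 13.2% of the 16234 genes tested were called (7.11% higher and 6.09% lower), with medians of -0.23 and 0.12. Those 2143 genes became 1402, 1359 or 1201 when 6-12hpi replicate 2, 6-12hpi replicate 3 or 12-18hpi replicate 2 was dropped.

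Through the next 3 steps 3 genes were called each time, 1 higher and 2 lower. In those steps the share of called genes was 33.0% (18.1% higher, 14.9% lower) for 18-24hpi against 12-18hpi, 45.4% (21.0% and 24.4%) for 24-30hpi against 18-24hpi and 49.9% (21.0% and 29.0%) for 30-36hpi against 24-30hpi. A count of 3 of 7 is near the share of all genes in each of them. The medians of the 7 genes and of all genes were -0.51 and 0.00, -0.43 and -0.12, and -0.07 and -0.22. From 30-36hpi to 48-54hpi 6 genes were called, 1 higher and 5 lower, where 62.0% of the 16234 genes tested were called (28.7% higher and 33.3% lower), with medians of -1.59 and -0.19. Again 6 were called from 48-54hpi to 70-76hpi, 2 higher and 4 lower, where 43.4% of the 16234 genes tested were called (21.6% higher and 21.8% lower), with medians of -0.40 and 0.00. The last step called 4, 1 higher and 3 lower, where 39.6% of the 16234 genes tested were called (20.1% higher and 19.5% lower), with medians of 0.18 and 0.07.

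Against MII oocytes, 5 genes were called at 12-18hpi (2 higher, 3 lower), where 43.9% of the 16234 genes tested were called (27.9% higher and 15.9% lower), with medians of -0.03 and 0.33. At 30-36hpi 6 were called (1 higher, 5 lower), where 77.0% of the 16234 genes tested were called (39.0% higher and 37.9% lower), with medians of -1.04 and 0.01. All 7 were called at 90-96hpi, Cd9 and Cd81 higher and the other 5 lower, where 81.0% of the 16234 genes tested were called (42.6% higher and 38.4% lower). Their median log2 fold change at 90-96hpi was -6.50, against 0.27 over all genes tested. Comparisons that share the MII libraries are given side by side here and not as independent results.

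**Figure D1:**
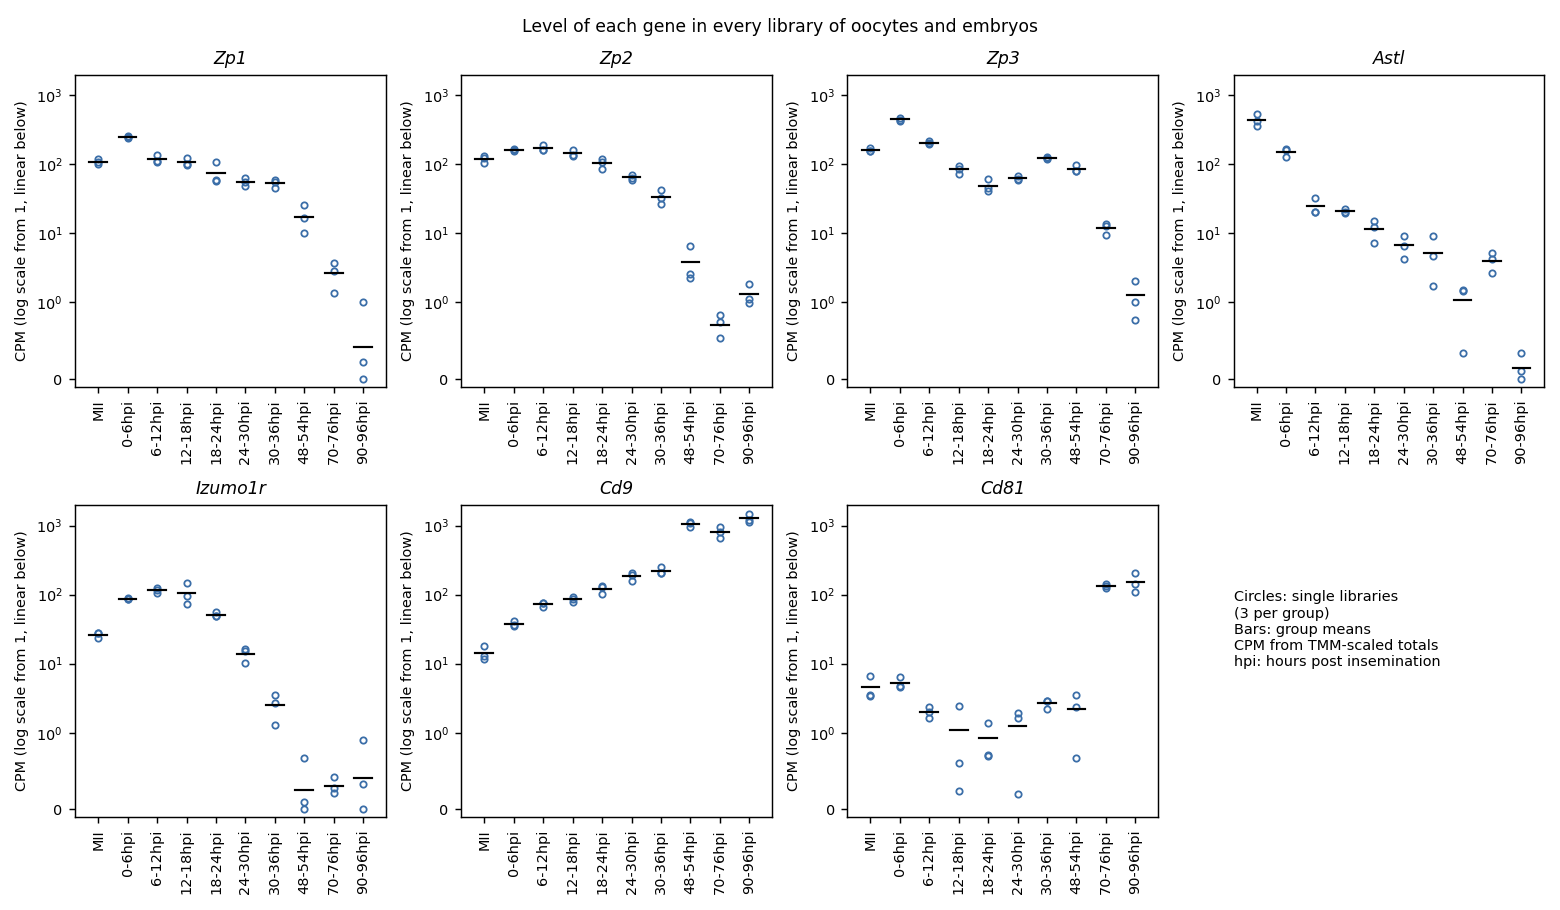
Level of each of the 7 genes in every library of MII oocytes and the 9 labelling windows, in CPM (symmetric log axis, linear below 1). Circles are libraries, 3 per group, and bars are group means. Zp1, Zp2, Zp3, Astl and Izumo1r end below 3 CPM at 90-96hpi, whereas Cd9 and Cd81 end above 100 CPM.

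Zp1, which cross-links the fibres of the coat, was highest at 0-6hpi. It measured 108, 102 and 118 CPM in MII oocytes, then 243, 254 and 247 CPM at 0-6hpi. All 3 libraries of the earliest window lay above all 3 of the oocytes, and the log2 fold change, written throughout as estimate ± SE, was called (1.18 ± 0.26 log2 units, adjusted p = 0.000964). At 6-12hpi Zp1 read 111, 107 and 136 CPM, below every 0-6hpi library and close to the oocytes (-1.07 ± 0.26 log2 units, adjusted p = 0.00608 for the step). It then went 103, 123 and 96.6 CPM at 12-18hpi, 59.6, 56.8 and 109 CPM at 18-24hpi, 62.4, 48.2 and 56.3 CPM at 24-30hpi and 44.7, 55.7 and 58.7 CPM at 30-36hpi. No step among these 4 windows was called (adjusted p = 0.801, 0.132, 0.182 and 0.851, from 6-12hpi on). Replicate 3 of 18-24hpi, at 109 CPM, lay inside the 12-18hpi range while its 2 fellows lay far below it, and without it the step from 12-18hpi was called (adjusted p = 0.0178). By 30-36hpi Zp1 was below MII (-1.04 ± 0.26 log2 units, adjusted p = 0.000673), but with libraries scaled by total count alone that call was lost (adjusted p = 0.186).

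The later fall of Zp1 passed the test at each step. Levels were 25.7, 17 and 10.05 CPM at 48-54hpi (-1.59 ± 0.28 log2 units, adjusted p = 9.83e-06) and 3.74, 2.89 and 1.38 CPM at 70-76hpi (-2.72 ± 0.34 log2 units, adjusted p = 1.17e-07). At 90-96hpi the counts were 0, 2 and 9 reads, and the last step was called too (-2.66 ± 0.61 log2 units, adjusted p = 0.000746). Each of these groups lay wholly below the one before it. Over the whole course Zp1 went from 109 ± 7.86 CPM to 0.416 ± 0.539 CPM (log2 fold change -8.01, adjusted p = 9.39e-17). In the order of its group levels, 6-12hpi, MII, 12-18hpi, 18-24hpi, 24-30hpi and 30-36hpi overlapped each with the next, and the other neighbours did not.

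Zp2, the coat protein that ovastacin cleaves, had its highest means at 0-6hpi and 6-12hpi and a lower mean in every later window until 70-76hpi. It measured 104, 124 and 131 CPM in MII oocytes, then 161, 166 and 155 CPM at 0-6hpi and 164, 159 and 190 CPM at 6-12hpi. The 0-6hpi libraries all lay above the oocytes, yet the difference was not called (0.43 ± 0.19 log2 units, adjusted p = 0.118). It was called with total count scaling (adjusted p = 0.0218) and when just those 2 groups were fitted (adjusted p = 0.00992). At 12-18hpi Zp2 read 133, 138 and 164 CPM (adjusted p = 0.486 for the step, 0.0287 with just the 2 groups). At 18-24hpi it read 86.7, 108 and 119 CPM, with no overlap and no call (-0.47 ± 0.19 log2 units, adjusted p = 0.0576), though with a replicate block (adjusted p = 0.0456) or just the 2 groups fitted (adjusted p = 0.0193) this step was called. The first called step was the next, to 59.9, 69.8 and 63.8 CPM at 24-30hpi (-0.70 ± 0.20 log2 units, adjusted p = 0.00381). That call was lost with total count scaling (adjusted p = 0.241), and also without 18-24hpi replicate 2, 18-24hpi replicate 3 or 24-30hpi replicate 1 (adjusted p = 0.099, 0.134 and 0.14).

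Zp2 then fell at 3 further steps. It read 32.4, 26.6 and 42.8 CPM at 30-36hpi (-0.93 ± 0.20 log2 units, adjusted p = 0.000204) and 2.62, 6.56 and 2.23 CPM at 48-54hpi (-3.15 ± 0.24 log2 units, adjusted p = 1.81e-13). At 70-76hpi the counts were 5, 9 and 7 reads (-2.40 ± 0.38 log2 units, adjusted p = 3.01e-06), and at 90-96hpi they were 9, 10 and 16 reads. The last 2 groups did not overlap, 90-96hpi being the higher, but the step was not called (0.87 ± 0.47 log2 units, adjusted p = 0.141). Zp2 thus ended at 1.31 ± 0.445 CPM against 119.6 ± 13.9 CPM in oocytes (log2 fold change -6.50, adjusted p = 4.05e-21). Among its ordered levels, 6-12hpi, 0-6hpi and 12-18hpi overlapped each with the next, as did MII with 18-24hpi.

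Zp3, the third coat glycoprotein, had 2 maxima. It measured 171, 155 and 156 CPM in MII oocytes, then 430.3, 442 and 469.8 CPM at 0-6hpi (1.48 ± 0.15 log2 units, adjusted p = 3.02e-09). It then fell at each of the next 3 steps, to 195, 204 and 215 CPM at 6-12hpi (-1.13 ± 0.15 log2 units, adjusted p = 1.37e-06), 86.6, 95.4 and 73.6 CPM at 12-18hpi (-1.26 ± 0.15 log2 units, adjusted p = 1.80e-07) and 45.7, 40.5 and 60.7 CPM at 18-24hpi (-0.80 ± 0.16 log2 units, adjusted p = 8.82e-05). None of these 4 steps showed an overlap between its groups. Zp3 was the single gene of the 7 that was called from 6-12hpi to 12-18hpi.

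The other maximum came at 30-36hpi. At 24-30hpi the libraries read 61.9, 68.2 and 58.9 CPM, overlapping with 18-24hpi (0.36 ± 0.15 log2 units, adjusted p = 0.0528). That step was called when just the 2 groups were fitted (adjusted p = 0.0153), with DESeq2 size factors (adjusted p = 0.0392), with DESeq2 (adjusted p = 0.021), with total count scaling (adjusted p = 8.70e-05) and after removal of 18-24hpi replicate 1, 2 or 3 or 24-30hpi replicate 1 (adjusted p = 0.0148, 0.0316, 0.000977 and 0.00651). At 30-36hpi they read 119, 128 and 122 CPM, all above those of 24-30hpi, and this rise was called (0.97 ± 0.15 log2 units, adjusted p = 2.39e-06). Neither Zp1 (adjusted p = 0.851) nor Zp2, which fell (adjusted p = 0.000204), rose at that step. The 30-36hpi level was still below MII in every library, but this call was fragile: its log2 fold change was -0.39 (adjusted p = 0.0198), turned to 0.28 with total count scaling (adjusted p = 0.0854) and went to -0.02 when just the 2 groups were fitted (adjusted p = 0.87). It was also lost with no filter on low counts (adjusted p = 0.132), and after removal of MII replicate 1, 2 or 3 or 30-36hpi replicate 1 (adjusted p = 0.203, 0.0934, 0.082 and 0.0537).

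Zp3 fell at each of the 3 late steps. At 48-54hpi it read 97, 80.8 and 79.8 CPM (-0.52 ± 0.15 log2 units, adjusted p = 0.00339), then 12.6, 13.8 and 9.32 CPM at 70-76hpi (-2.85 ± 0.17 log2 units, adjusted p = 1.19e-15). By 90-96hpi 7, 9 and 18 reads were left (-3.22 ± 0.25 log2 units, adjusted p = 1.09e-12), and no library of these 3 groups overlapped with the group before. From MII to 90-96hpi it went from 161 ± 8.83 CPM to 1.28 ± 0.678 CPM (log2 fold change -6.97, adjusted p = 8.82e-25). In its order of levels just 2 neighbouring pairs overlapped, 48-54hpi with 12-18hpi and 24-30hpi with 18-24hpi.

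Ratios of the coat genes within a library do not depend on how libraries are scaled, and are given here for Zp1 and Zp2 against Zp3. Counts of Zp2 per count of Zp3 were 0.748 ± 0.123 in MII oocytes, 0.36 ± 0.0253 at 0-6hpi and 0.835 ± 0.0525 at 6-12hpi. The ratio then passed through 1.74 ± 0.424 at 12-18hpi and 2.17 ± 0.423 at 18-24hpi, the highest group, to 1.03 ± 0.058 at 24-30hpi, 0.277 ± 0.0709 at 30-36hpi and 0.0454 ± 0.031 at 48-54hpi. Zp1 per Zp3 was 0.68 ± 0.0649 in oocytes, 0.556 ± 0.0255 at 0-6hpi and 0.576 ± 0.0541 at 6-12hpi. The last 2 of these groups overlapped, unlike those of Zp2 per Zp3. From 12-18hpi on it moved in the same directions as Zp2 per Zp3 up to 48-54hpi. It read 1.26 ± 0.0661 at 12-18hpi, 1.5 ± 0.259 at 18-24hpi, 0.431 ± 0.0519 at 30-36hpi and 0.2001 ± 0.0698 at 48-54hpi. All 3 libraries of 12-18hpi lay above all 3 of 6-12hpi and all 3 of 30-36hpi below all 3 of 18-24hpi, for both ratios. Each of these 4 differences had a two-sided exact permutation p = 0.1, the smallest that 3 libraries against 3 can give, and 0.1143 after Benjamini-Hochberg adjustment over 8 ratio tests, so the design cannot reach the threshold. The comparison of 30-36hpi with 18-24hpi starts from the group in which both ratios were highest. Both ratios share Zp3 as denominator, so they are not independent of each other or of the changes in Zp3.

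**Figure D2:**
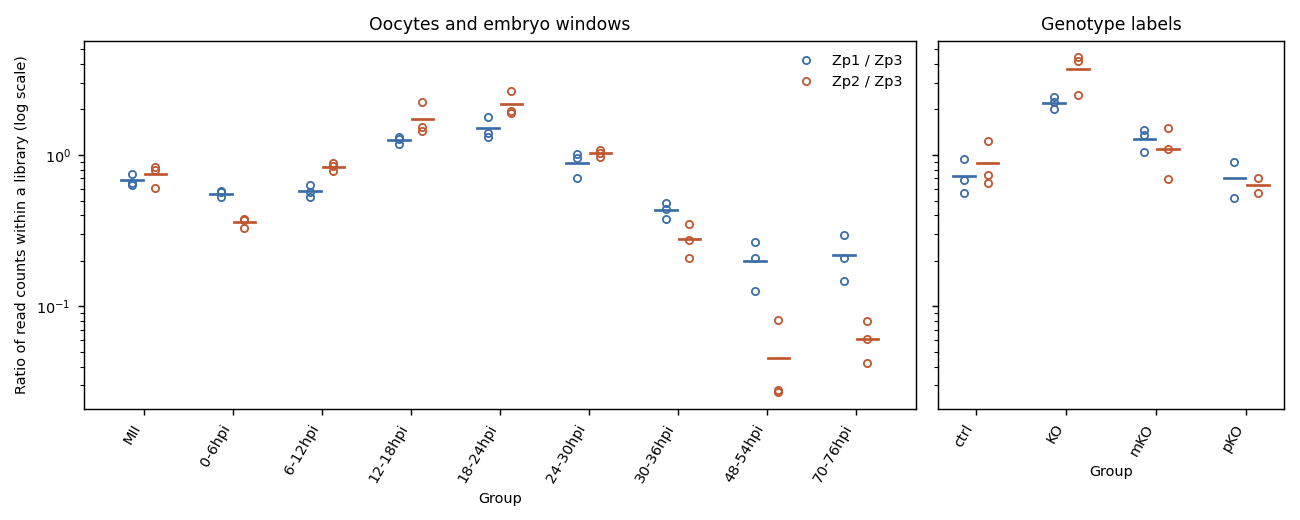
Counts of Zp1 and of Zp2 divided by counts of Zp3 in the same library (log axis), for MII oocytes and the windows to 70-76hpi on the left and for the genotype labels on the right; circles are libraries and bars are group means. The 90-96hpi group is not drawn because its counts are few, 0 to 18 per gene and library. Both ratios are highest at 18-24hpi and, among genotypes, in the libraries labelled KO.

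Astl, the ovastacin gene, was the one gene of the 7 that was lower in the earliest window than in oocytes. It measured 529.6, 421 and 355 CPM in MII oocytes, then 161, 126 and 169 CPM at 0-6hpi and 20.7, 20.6 and 32.9 CPM at 6-12hpi. No library of these 3 groups overlapped with the group before it, and both steps were called (-1.52 ± 0.32 log2 units, adjusted p = 0.00102, then -2.62 ± 0.34 log2 units, adjusted p = 6.27e-06). By 12-18hpi, at 19.99, 20.6 and 22.7 CPM, the level overlapped with 6-12hpi (adjusted p = 0.751). The next windows read 15.1, 7.26 and 12.5 CPM at 18-24hpi, 6.59, 4.33 and 9.15 CPM at 24-30hpi and 4.63, 1.7 and 9.3 CPM at 30-36hpi. None of these 3 steps was called (adjusted p = 0.0715, 0.101 and 0.416), although without 30-36hpi replicate 3, the highest of its group, the last of them was (adjusted p = 0.0232). The 18-24hpi step, in which all 3 libraries lay below those of 12-18hpi, was called with a replicate block (adjusted p = 0.0396), with no filter on low counts (0.00138) and with just the 2 groups fitted (0.0293). The 24-30hpi step was called with no filter on low counts (adjusted p = 0.00405).

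Late Astl values rest on few reads. At 48-54hpi the counts were 16, 14 and 3 reads (-2.16 ± 0.54 log2 units, adjusted p = 0.00109). At 70-76hpi they were 48, 46 and 25 reads, and all 3 libraries lay above those of 48-54hpi (1.83 ± 0.56 log2 units, adjusted p = 0.00891). At 90-96hpi they were 0, 1 and 3 reads (-4.64 ± 0.84 log2 units, adjusted p = 7.18e-05). The level at 70-76hpi, 4.02 ± 1.26 CPM, was within the range of 30-36hpi, where it had been 5.21 ± 3.83 CPM. Relative to MII, Astl differed at 12-18hpi by a log2 fold change of -4.37 (adjusted p = 2.19e-10), by -6.43 at 30-36hpi (adjusted p = 1.48e-13) and by -11.39 at 90-96hpi (adjusted p = 1.83e-15), the last from 4 reads in 3 libraries.

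Izumo1r, which encodes JUNO, rose from the oocyte to the first embryo windows before it fell. It measured 23.2, 27.4 and 27.4 CPM in MII oocytes, then 85.5, 89 and 86.1 CPM at 0-6hpi, with no overlap (1.74 ± 0.28 log2 units, adjusted p = 1.13e-05). At 6-12hpi it read 115, 123 and 106 CPM, above every 0-6hpi library but not called (0.40 ± 0.26 log2 units, adjusted p = 0.466) unless those 2 groups alone were fitted (adjusted p = 0.00154). The 12-18hpi libraries spread widely, at 95.1, 72.5 and 146 CPM. Replicate 3 was the high library there, and the next step, to 49.3, 55.3 and 49.3 CPM, was called with it (-1.03 ± 0.27 log2 units, adjusted p = 0.00268) and not without it (adjusted p = 0.0862).

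Izumo1r then fell at 3 steps running. It went to 10.3, 16.5 and 15.3 CPM at 24-30hpi (-1.87 ± 0.28 log2 units, adjusted p = 1.36e-06), to 1.31, 3.56 and 2.72 CPM at 30-36hpi (-2.44 ± 0.33 log2 units, adjusted p = 1.80e-07) and to 1, 0 and 6 reads at 48-54hpi (-3.35 ± 0.60 log2 units, adjusted p = 8.98e-06). The groups of these steps did not overlap. Later counts were 2, 3 and 4 reads at 70-76hpi and 0, 3 and 8 reads at 90-96hpi, and the levels of the last 3 groups overlapped. Compared with MII it was higher at 12-18hpi (2.01 ± 0.28 log2 units, adjusted p = 2.35e-07) and lower at 30-36hpi (-3.33 ± 0.33 log2 units, adjusted p = 3.57e-11) and at 90-96hpi (-5.94 ± 0.45 log2 units, adjusted p = 1.65e-14).

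Cd9, the tetraspanin most tied to gamete fusion, took the opposite course and rose through nearly the whole period. It measured 12.9, 18.2 and 11.6 CPM in MII oocytes, then 36.7, 41.5 and 35.7 CPM at 0-6hpi and 66.8, 74.5 and 76.1 CPM at 6-12hpi. Each group lay wholly above the one before, and both steps were called (1.41 ± 0.16 log2 units, adjusted p = 3.54e-08, then 0.93 ± 0.15 log2 units, adjusted p = 3.70e-05). It went on to 92.5, 77.3 and 87.8 CPM at 12-18hpi, which was no called step (adjusted p = 0.318), 103, 132 and 129 CPM at 18-24hpi (0.50 ± 0.15 log2 units, adjusted p = 0.00787) and 159, 193 and 207 CPM at 24-30hpi (0.62 ± 0.15 log2 units, adjusted p = 0.000677). At 30-36hpi it read 207, 249 and 203 CPM, overlapping with 24-30hpi (adjusted p = 0.173, and 0.0254 with just the 2 groups fitted). The largest single step followed, to 969, 1103 and 1114 CPM at 48-54hpi (2.27 ± 0.15 log2 units, adjusted p = 3.10e-15). It spans a longer time than the steps before it.

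In the last windows Cd9 stayed high. It read 956, 799 and 659.9 CPM at 70-76hpi, below every 48-54hpi library (-0.40 ± 0.14 log2 units, adjusted p = 0.022), and 1480, 1203 and 1121 CPM at 90-96hpi (0.66 ± 0.14 log2 units, adjusted p = 0.000336). The small drop at 70-76hpi was not called with total count scaling (adjusted p = 0.287), without 48-54hpi replicate 3 (adjusted p = 0.0821) or without 70-76hpi replicate 3 (adjusted p = 0.168). From MII to 90-96hpi Cd9 rose from 14.2 ± 3.47 CPM to 1268 ± 188 CPM (6.48 ± 0.19 log2 units, adjusted p = 3.58e-26).

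Cd81, the related tetraspanin, was low until 48-54hpi and then rose in a single step. It measured 3.4, 6.71 and 3.54 CPM in MII oocytes, then 4.8, 4.64 and 6.43 CPM at 0-6hpi, with overlap (adjusted p = 0.779). At 6-12hpi it read 2.37, 1.61 and 1.998 CPM. This lay below every 0-6hpi library, and the call was marginal (-1.41 ± 0.45 log2 units, adjusted p = 0.0496): it was lost with DESeq2 (adjusted p = 0.0605) and with any 1 of the 6 libraries left out (adjusted p = 0.0525 to 0.203). Counts were 5, 2 and 22 reads at 12-18hpi and 21, 2 and 19 reads at 24-30hpi, with replicate 3 apart in the former and replicate 2 in the latter. Without 12-18hpi replicate 3 the step from 6-12hpi was called (log2 fold change -2.27, adjusted p = 0.0287). The step from 24-30hpi to 30-36hpi was not called (adjusted p = 0.0841). It was called with no filter on low counts (adjusted p = 0.00842) and without 24-30hpi replicate 1 (adjusted p = 0.0206), which leaves the library of 2 reads as 1 of 2 in its group.

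Between 48-54hpi and 70-76hpi Cd81 went from 3.47, 2.39 and 0.67 CPM to 141, 126 and 135 CPM. The groups lay far apart, and the change was the largest of any of the 7 genes at a single step (5.91 ± 0.44 log2 units, adjusted p = 1.48e-12). Steps are unequal in time, and this one includes unsampled hours. At 90-96hpi it read 205, 111 and 140.5 CPM, overlapping with 70-76hpi (adjusted p = 0.715). The main rise of Cd9 therefore fell in the step before that of Cd81: at 48-54hpi Cd9 changed by 2.27 and Cd81 by -0.27 on the log2 scale (adjusted p = 0.645).

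**Figure D3:**
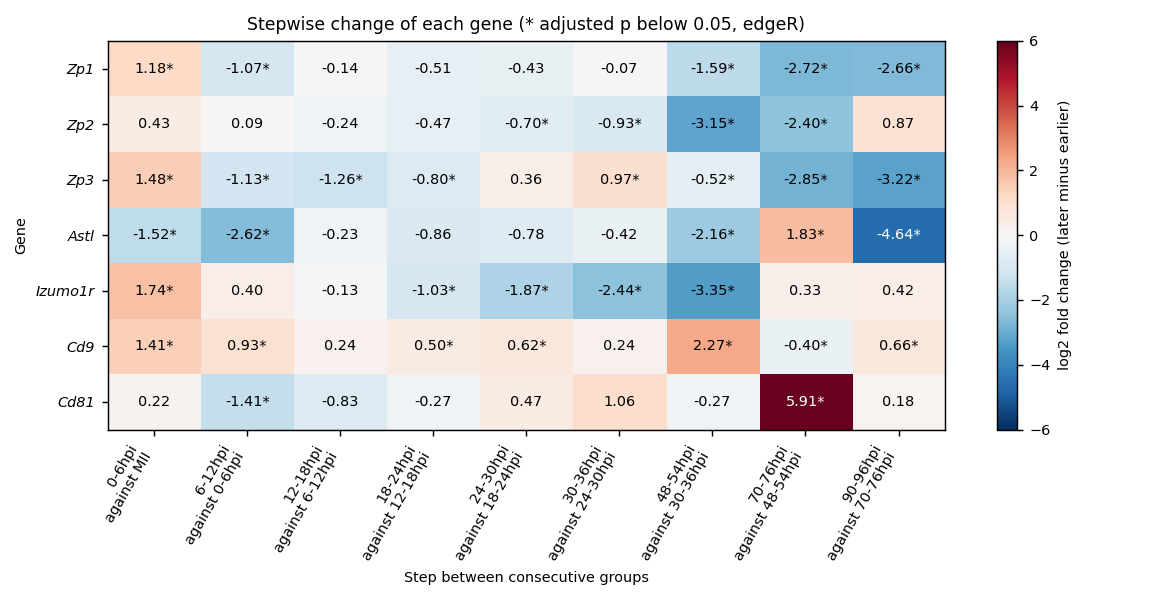
Log2 fold change of each gene at each step between consecutive groups, later minus earlier, with an asterisk where edgeR's adjusted p is below 0.05. Zp1, Zp2, Zp3, Astl and Izumo1r all fall at 48-54hpi while Cd9 rises, and the Cd81 rise of 5.91 stands alone in its row.

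Compared per length of gene, the order of the 7 genes turned over between the oocyte and the last window. In MII oocytes Astl was highest at 183 ± 37 RPKM, followed by Zp3 at 122 ± 6.67 RPKM, Zp1 at 55.6 ± 4.005 RPKM and Zp2 at 49.96 ± 5.82 RPKM. Izumo1r (20.2 ± 1.86 RPKM), Cd9 (11.6 ± 2.82 RPKM) and Cd81 (2.83 ± 1.17 RPKM) were lower, and Zp1 and Zp2 were the single pair of neighbours whose libraries overlapped. At 0-6hpi Zp3 led with 338 ± 15.3 RPKM, then Zp1 with 126 ± 2.77 RPKM, while Izumo1r, Zp2 and Astl overlapped between 67.3 ± 1.46 RPKM and 63.9 ± 9.74 RPKM. By 12-18hpi the genes from Izumo1r at 81.1 ± 29.4 RPKM down to Zp1 at 54.7 ± 6.9 RPKM, with Cd9, Zp3 and Zp2 between them, overlapped each with the next, and Astl at 8.88 ± 0.592 RPKM had dropped below them.

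Later Cd9 led, whereas Cd81 still had the lowest mean of the 7 at 30-36hpi, 1.66 ± 0.245 RPKM. By 70-76hpi Cd81, at 83.4 ± 4.84 RPKM, came second after Cd9. Cd9 was the highest of the 7 in all 3 libraries of every window from 18-24hpi on. At 30-36hpi it read 179 ± 20.7 RPKM, ahead of Zp3 at 93 ± 3.39 RPKM, Zp1 at 27 ± 3.77 RPKM and Zp2 at 14.2 ± 3.44 RPKM, none of which overlapped. At 90-96hpi Cd9 read 1032 ± 153 RPKM and Cd81 94.6 ± 30.1 RPKM. The other 5 lay between 0.0636 ± 0.0732 RPKM for Astl and 0.966 ± 0.513 RPKM for Zp3 and overlapped each with the next.

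**Figure D4:**
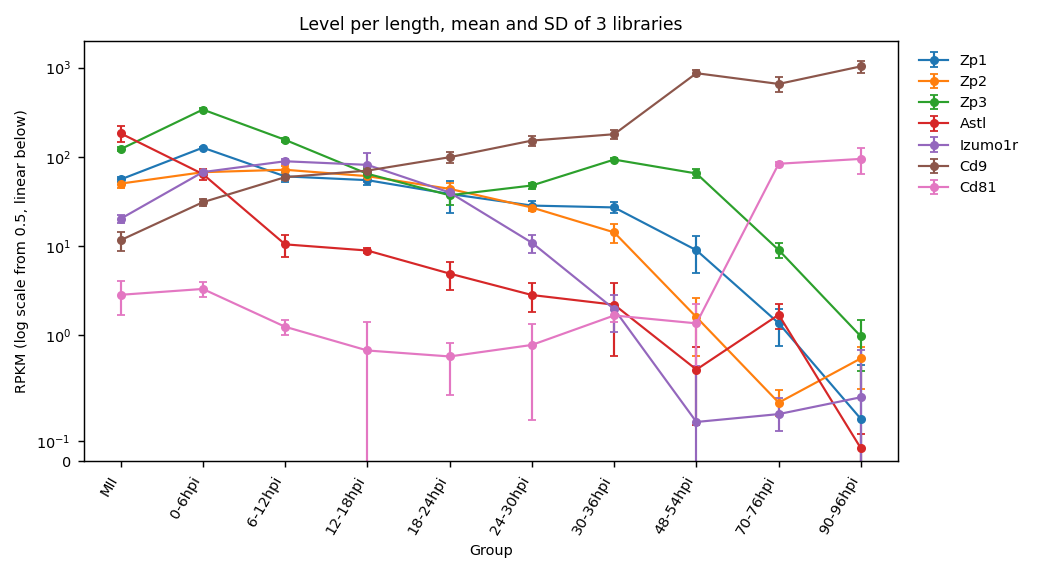
Level per length of each gene by group, in RPKM (symmetric log axis, linear below 0.5), as mean with SD of 3 libraries. Astl is highest in MII oocytes, Zp3 at 0-6hpi, and Cd9 from 18-24hpi on.

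Over the 10 group means of log2 CPM, Zp1 correlated with Zp2 at r = 0.93 and with Zp3 at 0.94, and Zp2 with Zp3 at 0.77. Zp2 was closer to Izumo1r, at 0.95, than to Zp3. Astl and Cd9 ran in opposite directions, at -0.96, and Cd9 and Cd81 at 0.50. All groups come from the same 30 libraries and follow each other in time, so these are descriptions over 10 points. The same measure over 9048 genes that reached a mean of 20 CPM in some group gave the 3 most similar genes for each. For Zp1 they were Pcgf6 (0.984), Pex11a (0.984), Cdca5 (0.983), for Zp2 Rspo2 (0.997), Thsd7b (0.996), Dpysl3 (0.996) and for Zp3 Farp2 (0.972), Ercc6l (0.968), Taf1a (0.961). Nearest to Astl were Mos (0.978), Mfsd9 (0.966), Smug1 (0.966), Mos being the kinase that holds eggs in metaphase arrest, and nearest to Izumo1r were AC112259.2 (0.995), Arntl2 (0.994), Igsf23 (0.994). For Cd9 they were Rpl36a (0.993), Cdk4 (0.991), Fbl (0.99), a ribosomal protein, a cell cycle kinase and a nucleolar methyltransferase, and for Cd81 Gng10 (0.963), Vps36 (0.949), Vav2 (0.948), with lower values.

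Other genes of the same pathways were taken from lists chosen by function. Of the factors that act upstream of the zona genes, 1 rose and 4 fell of 9 tested between MII and 90-96hpi, with a median log2 fold change of -0.76 against 0.27 over all genes tested, and 2 rose and 0 fell of 9 tested at 0-6hpi against MII. The shares of all genes to read these and the following counts against are 42.6% higher and 38.4% lower at 90-96hpi, and 12.9% and 8.28% at 0-6hpi. Nobox, an oocyte homeobox factor, went from 142 ± 16.2 CPM in MII oocytes to 346 ± 15.2 CPM at 12-18hpi and 0.253 ± 0.229 CPM at 48-54hpi. Lhx8, a LIM homeobox factor of the oocyte, likewise read 55.6 ± 7.004 CPM, 223 ± 16.8 CPM and 0.37 ± 0.552 CPM in those groups. Taf4b, a TFIID subunit of germ cells, was instead highest at 30-36hpi, with 162 ± 11.7 CPM.

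Of the other egg coat and astacin family genes, 1 rose and 7 fell of 9 tested at 90-96hpi against MII (median -6.99). Oosp1, an oocyte-secreted protein, went from 1957 ± 94.4 CPM to 8.36 ± 10.8 CPM, and Oosp3 from 1440 ± 67.7 CPM to 5.86 ± 6.51 CPM. For cortical granule exocytosis 5 rose and 8 fell of 19 tested (median -0.41) at 90-96hpi, and 4 rose and 1 fell of 19 tested at 0-6hpi against MII. Itpr1, the calcium channel that opens at egg activation, went from 118 ± 24.3 CPM to 44.6 ± 8.56 CPM at 30-36hpi and 1.31 ± 0.367 CPM at 90-96hpi. Calr, the calcium-binding chaperone calreticulin, went the other way, from 93.8 ± 15.6 CPM to 641 ± 15.1 CPM.

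Among tetraspanins and partners of CD9, 15 rose and 8 fell of 25 tested at 90-96hpi against MII (median 2.44, all genes 0.27), where 81.0% of all genes were called. Tspan8 went from 4.27 ± 1.72 CPM in MII oocytes to 21.2 ± 3.64 CPM at 70-76hpi and 363 ± 77.3 CPM at 90-96hpi, whereas Tspan5 went from 59.7 ± 9.4 CPM to 1.88 ± 0.868 CPM. Itga6, an integrin chain that binds CD9, went from 482 ± 116 CPM to 23 ± 3.84 CPM at 48-54hpi and 109 ± 22.8 CPM at 90-96hpi. Folr1, a folate receptor and relative of Izumo1r, took a course unlike that of JUNO: 0.95 ± 0.632 CPM in MII oocytes, 20.8 ± 5.78 CPM at 18-24hpi, 775 ± 38.5 CPM at 48-54hpi and 142 ± 28.9 CPM at 90-96hpi. For the synthesis of GPI anchors, which JUNO carries, 13 rose and 8 fell of 26 tested at 90-96hpi (median 0.84). Of the genes that act on the sperm side, 2 rose and 2 fell of 8 tested (median -0.34), 5 of the 13 in the table having too few reads to test.

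The genotype libraries carry labels of Klf17, a Kruppel-like zinc finger factor whose loss the set was made to study. Klf17 itself measured 596, 805 and 746 CPM in the controls, 673, 603 and 728 CPM in the libraries labelled KO, 359, 845 and 794 CPM in mKO and 812 and 1015 CPM in pKO. KO and control libraries overlapped, and no difference was called (-0.10 ± 0.30 log2 units, adjusted p = 0.869). Which part of the gene was deleted is not stated, so gene counts may include reads of a remaining part, and KO, mKO and pKO stand below for the libraries labelled so.

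Zp3 was the one gene of the 7 called between the libraries labelled KO and the controls, where 8.13% of the 16694 genes tested were called (1.82% higher and 6.31% lower). That share moved with single libraries: the 1358 genes called became 892, 270, 188 without ctrl replicate 1, 2 or 3, and 269, 0, 586 without KO replicate 1, 2 or 3. The edgeR count of 0 stood beside 3235 genes at an unadjusted p below 0.05, and DESeq2 was not run with a library left out. Zp3 measured 92.2, 114 and 83.5 CPM in the controls and 41.7, 41.8 and 34.7 CPM in the libraries labelled KO. All 3 of the latter lay below all 3 controls (-1.29 ± 0.30 log2 units, adjusted p = 0.0181). The mKO libraries read 45.7, 82.5 and 54.3 CPM, also below every control, but the difference was not called (-0.67 ± 0.30 log2 units, adjusted p = 0.647), and the pKO libraries read 131 and 102 CPM, overlapping with the controls (adjusted p = 1). Against pKO, Zp3 was called lower in KO (-1.56 ± 0.33 log2 units, adjusted p = 0.00803), the single call of 7 genes where 12.5% of all genes were called (2.83% higher and 9.67% lower). Those 2087 genes became 1106, 500, 954 without KO replicate 1, 2 or 3, and 1180 and 582 without pKO replicate 1 or 2. KO and mKO were not shown to differ in Zp3 (-0.63 ± 0.30 log2 units, adjusted p = 0.375).

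The Zp3 call was lost with 5 of the 6 libraries left out in turn. It was lost without ctrl replicate 2 (adjusted p = 0.0936), ctrl replicate 3 (0.0595), KO replicate 1 (0.0585), KO replicate 2 (0.0809) or KO replicate 3 (0.0656), with log2 fold changes between -1.38 and -1.15. The share of reads on mitochondrial genes moved with the label, at 11.4%, 9.05% and 5.92% in KO against 4.18%, 3.23% and 3.55% in the controls, 5.82%, 4.19% and 5.46% in mKO and 5.63% and 3.73% in pKO. With that share as a covariate, an alternative added after the data were seen, the log2 fold change was -1.34 (adjusted p = 0.527) against the controls and -1.60 (adjusted p = 0.17) against pKO, and edgeR called no gene of the table in either comparison (1424 and 2414 genes at an unadjusted p below 0.05). DESeq2 was not run with the covariate. The 10 oocyte markers summed to 3924 to 4379 CPM in KO, 2200 to 2957 in the controls, 2719 to 4496 in mKO and 2262 to 2566 in pKO. Their sum was thus higher in every KO library than in any control. Of these 10 genes edgeR called 1 higher and 0 lower for KO against control (median log2 fold change 0.28, all genes 0.05). At an unadjusted p below 0.05 there were 2, and DESeq2 called 1. Cumulus and granulosa markers summed to 13.7 to 20.1 CPM in KO and 18.2 to 29.7 CPM in the controls. The 10 trophectoderm and inner cell mass markers summed to 92.3 to 179 CPM in KO, 95.4 to 104 CPM in the controls, 88.1 to 99.9 CPM in mKO and 71.3 to 139 CPM in pKO, with Cdx2 at 0 outside KO. For KO against control edgeR called 1 higher and 1 lower of the 9 tested (median 1.34, all genes 0.05), 8 were at an unadjusted p below 0.05, and DESeq2 called 6. Beyond the covariate, the part of these differences in the Zp3 result was not tested.

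The other coat genes were not called. Zp2 measured 114, 84.5 and 54.9 CPM in the controls, 104, 184 and 144 CPM in KO, 69, 57.1 and 59.2 CPM in mKO and 92.3 and 57 CPM in pKO. KO and control libraries overlapped, KO having the higher mean, and no call was made (0.77 ± 0.33 log2 units, adjusted p = 0.147). Against mKO, all KO libraries were higher (1.22 ± 0.33 log2 units, adjusted p = 0.198), and that difference was called with no filter on low counts (adjusted p = 0.0252), with DESeq2 (adjusted p = 0.0274) and without mKO replicate 1 (adjusted p = 0.0384). Against pKO, Zp2 was called with DESeq2 (adjusted p = 0.0351) and not with edgeR (adjusted p = 0.0997). Zp1 measured 86.3, 63.6 and 56.9 CPM in the controls, 84.1, 100.4 and 77.6 CPM in KO, 61.4, 86.6 and 79.2 CPM in mKO and 67.6 and 91.4 CPM in pKO. The groups overlapped throughout (0.34 ± 0.29 log2 units, adjusted p = 0.48 for KO against control).

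Within a library, counts of Zp2 per count of Zp3 were 0.88 ± 0.315 in the controls (range 0.658 to 1.24), 3.68 ± 1.05 in KO (range 2.48 to 4.41), 1.1 ± 0.41 in mKO and 0.632 ± 0.105 in pKO (n = 2). Zp1 per Zp3 was 0.725 ± 0.193 in the controls (range 0.559 to 0.936), 2.22 ± 0.193 in KO (range 2.02 to 2.4), 1.28 ± 0.211 in mKO and 0.707 ± 0.267 in pKO (n = 2). For both ratios every KO library lay above every control, by 2.08 and 1.64 on the log2 scale. The two-sided exact permutation p was 0.1 each, the smallest possible, and 0.1143 after Benjamini-Hochberg adjustment over 8 ratio tests. Both ratios have Zp3 as denominator, and Zp3 was itself lower in these KO libraries. They are therefore independent neither of each other nor of the Zp3 result. The mKO libraries lay above the controls for Zp1 per Zp3 (log2 difference 0.84, exact p = 0.1) and overlapped for Zp2 per Zp3 (log2 difference 0.31, exact p = 0.6). The 2 sets of libraries come from separate tables, so the KO ratios and those of the time course, highest at 18-24hpi with 2.17 ± 0.423 and 1.5 ± 0.259, are given side by side without a test.

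Astl was low throughout, at 9.86, 10.3 and 9.91 CPM in the controls, 5.12, 4.17 and 16.1 CPM in KO, 5.72, 9.47 and 16 CPM in mKO and 14.1 and 15.2 CPM in pKO. KO and mKO each spread around the controls, and the pKO libraries lay above them (adjusted p = 0.813, 0.989 and 1). Izumo1r read 10.5, 4.52 and 5.83 CPM, 8.74, 13.2 and 5.94 CPM, 7.63, 6.3 and 7.24 CPM and 2.54 and 4.96 CPM in the same order of groups, all overlapping with the controls (adjusted p = 0.658, 0.999 and 1).

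Cd9 was the highest of the 7 per length in every genotype, at 264, 237 and 186 CPM in the controls, 209, 202 and 143 CPM in KO, 176, 186 and 177 CPM in mKO and 320.3 and 195 CPM in pKO. No difference from the controls was called (log2 fold change -0.31, -0.35 and 0.17, adjusted p = 0.502, 0.778 and 1), and every group overlapped with them. Cd81 counts varied widely among replicates, with 175, 100 and 165 reads in the controls, 5, 263 and 165 reads in KO, 13, 111 and 135 reads in mKO and 44 and 122 reads in pKO. Both the lowest and the highest library were labelled KO, and no difference was called (adjusted p = 0.853, 0.854 and 1).

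For mKO against control edgeR called 0 of the 7 genes and 0% of all genes, with 1 of the 7 (Zp3) and 1243 of 16694 genes at an unadjusted p below 0.05. DESeq2 called 0 of the 7 and 32 genes in all. For pKO against control the counts were 0 called by edgeR, 0 of the 7 and 476 of all genes unadjusted, and 0 and 2 by DESeq2. For KO against mKO they were 0, 2 of the 7 (Zp2 and Zp3), 2220 of all genes, and 1 and 336 by DESeq2. For mKO against pKO they were 0, 1 of the 7 (Zp3), 1919 of all genes, and 0 and 130 by DESeq2. Some of these counts of all genes moved with 1 library left out: without mKO replicate 2 edgeR called 110 for mKO against control and 483 for mKO against pKO, and without mKO replicate 1 it called 1044 for KO against mKO. With any other library left out edgeR called 0 in these 3 comparisons, as it did for pKO against control with each library left out. These comparisons share libraries with each other and are not independent.

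**Figure D5:**
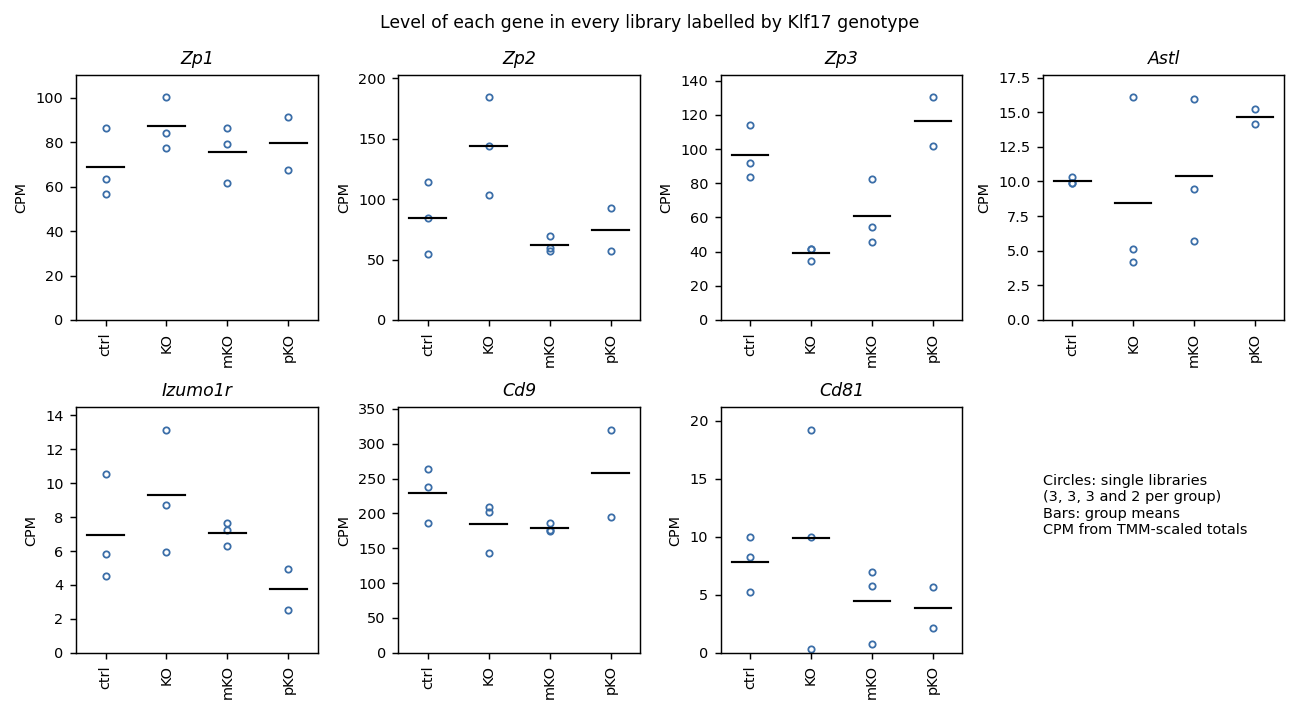
Level of each of the 7 genes in every library of the genotype set, in CPM on linear axes that start at 0 and differ between panels. Circles are libraries (3 ctrl, 3 KO, 3 mKO and 2 pKO) and bars are group means. Zp3 in the libraries labelled KO lies at 34.7 to 41.8 CPM, below all controls, while the KO and control libraries overlap for the other 6 genes.

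For KO against control, calls from the pathway lists are to be read against the 8.13% of all genes that edgeR called. They were 1 of 25 tetraspanins and partners (higher) and 3 of 26 GPI anchor genes (lower). DESeq2 called 4 and 5 from these lists, and 2592 of all 16694 genes. The 19 cortical granule genes had a median log2 fold change of 0.21 and the 9 upstream oocyte factors one of 0.17. From these lists edgeR called 0 and 0 genes, with 2 and 1 at an unadjusted p below 0.05, and DESeq2 called 2 and 1. Of the other egg coat and astacin family genes 2 of 13 were higher, Tll1, a tolloid-like protease (39.2 ± 11.9 against 11.3 ± 1.78 CPM), and Oosp3 (492 ± 215 against 183 ± 66.3 CPM). Folr1 was lower in KO (161 ± 18.8 against 375 ± 29.9 CPM, log2 fold change -1.22, adjusted p = 0.0415). Spam1, a hyaluronidase of the sperm surface, was higher (49.3 ± 14.3 against 21.5 ± 1.02 CPM), 1 call among 7 sperm-side genes tested. In the time course Spam1 read 83.5 ± 16.4 CPM in MII oocytes, before any sperm, and 0.505 ± 0.462 CPM at 48-54hpi. The medians of the list of coat and astacin family genes and of all genes tested were 1.14 and 0.05. With the mitochondrial share as a covariate edgeR called no gene of any of these lists. In that fit 1424 of all genes were at an unadjusted p below 0.05.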

How the data were processed

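Polyadenylated RNA was measured in 30 libraries of WT oocytes and embryos and in 11 of the Klf17 genotypes. The series lists 61 samples, of which 14 of chromatin accessibility and 6 of an embryo-number test were not used. What the authors deposited is, by the file headers, a table of read counts and gene lengths per experiment. The authors' window table has 1 damaged record, left out, so its 90-96hpi replicate 3 column was treated as deposited estimated counts and rounded. The submitters' processing notes name Trim Galore 0.6.10, STAR 2.7.10a, SAMtools 1.12, Bowtie2 2.4.2, Picard 2.20.4, deepTools 3.5.4 and the build mm10. The counter, its strand setting and its use of T-to-C conversions are not given in the sources used here.

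Groups and replicates came from the sample titles. One edgeR 4.0.16 fit was made per table under R 4.3.3 (low counts removed by filterByExpr at 10 reads and a total of 15, scaling by TMM, robust two-sided quasi-likelihood test, Benjamini-Hochberg adjustment over all genes tested, called below 0.05). This left 16234 and 16694 genes, with all 7 members in both. SEs come from dividing the log2 fold change by the root of F. CPM used TMM-scaled totals and RPKM the deposited lengths. Ratios of counts were compared by exact permutation tests. Figures and sequences used Python 3.11.15, pandas 2.3.3, numpy 2.4.6 and matplotlib 3.10.9.

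The members, the gene lists and the naming rule were chosen with earlier results of these data known. The rule names all 7 members, Klf17, up to 4 genes per list with the smallest adjusted p at 90-96hpi against MII and a mean of at least 20 CPM in some group, of which the text prints those that bear on a described course, and the 3 genes nearest to each member. List genes called for KO against control were named after their values were seen. Deviations of same-numbered libraries correlated at r = -0.04 to 0.19 over 51 pairs. Every pair was over 0.1 for pKO against control (0.118 and 0.111) and mKO against pKO (0.193 and 0.151), with 2 pairs each, and 2 of 3 were for mKO against control and for 90-96hpi against 70-76hpi. For mKO against control the 2 were replicates 1 and 2 (0.138 and 0.113). Replicates 1 and 2 were thus over 0.1 in every comparison among ctrl, mKO and pKO. A comparison with pKO has 2 pairs and could not meet a rule of 3. No comparison with 3 pairs had all over 0.1, and the labels tie a number to no shared source, so the numbers were not used as pairs in the main fit. On simulated counts edgeR recovered 61% of 2-fold and 95% of 4-fold changes for 0-6hpi against MII (16234 genes, 8 unchanged genes called), and 7% and 77% for KO against control (16694 genes, 6 called). In each simulation 100 genes were changed per fold, drawn from genes above a low limit of mean CPM. All other genes were equal in all groups, so recovery in the real comparisons, where far more genes were called, may differ. Alternatives were DESeq2 1.42.0, other scalings, no filter on low counts, replicate number as a block, a fit of 2 groups, and each library left out. The mitochondrial share as a covariate and leaving out mitochondrial genes were added after the data were seen.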

Additional observations from a re-analysis of the deposited data

How the results depend on the processing

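Of 126 comparisons of a single gene, 56 were called, and 48 of these calls held under every alternative run; the 8 that did not are named with their values in the report. Among 1613 results under alternatives 1 called value changed sign, Zp3 at 30-36hpi against MII, from -0.39 to 0.28 with total count scaling, and 46 uncalled ones did (smallest adjusted p = 0.321). That scaling moved the median log2 fold change of all genes from 0.01 to 0.68 there, from 0.27 to 0.79 at 90-96hpi against MII and from -0.19 to -0.66 at 48-54hpi against 30-36hpi. Levels of the 7 genes changed by 0.799 to 1.28 times with it and by 0.938 to 1.08 times with DESeq2 size factors.

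The number of the 7 genes called changed from 3 to 5 for 18-24hpi against 12-18hpi, both with a replicate block and with only those groups fitted, and from 1 to 2 for 12-18hpi against 6-12hpi with only those groups fitted. For KO against mKO it went from 0 to 1 with no low-count filter and with DESeq2. For KO against pKO it was 2 with DESeq2 and 0 with the mitochondrial share as a covariate (main 1), and for KO against control 0 with that covariate (main 1). With 1 library left out, the count ran from 0 to 1 for KO against control, 1 to 2 for 12-18hpi against 6-12hpi, 0 to 1 for KO against mKO, 2 to 4 for 18-24hpi against 12-18hpi, and 4 in every case for 6-12hpi against 0-6hpi (main 5). The replicate block ended 1 call, Cd81 at 6-12hpi against 0-6hpi (adjusted p = 0.0597), and made 2, Astl and Zp2 at 18-24hpi against 12-18hpi (0.0396 and 0.0456). Of 51 same-numbered pairs 20 correlated best with their own number, among them replicates 1 and 2 in each comparison among ctrl, mKO and pKO.

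Over all genes, KO against control called 1358 (304 higher), against 2592 (1066 higher) with DESeq2, 2237 (739) with no filter, 2064 (578) with the block, 3166 (1182) with only the 2 groups, 0 with the covariate and 0 to 892 with 1 library left out, and KO against pKO called 2087 (472 higher), against 3521 (1550) with DESeq2, 2907 (1017) with no filter, 1902 (633) with total count scaling, 0 with the covariate and 500 to 1180 with 1 library left out. With no filter mKO against control, pKO against control, KO against mKO and mKO against pKO called 47, 4, 543 and 136 genes; with 1 library left out the first and the last 2 reached 110, 1044 and 483. With 1 library left out 739 to 871 genes were called for 6-12hpi against 0-6hpi and 1201 (409 higher) to 1779 for 12-18hpi against 6-12hpi. Fitting 2 groups alone called 3577 genes (1854 higher) against 1243 (768) for 6-12hpi against 0-6hpi, 3628 (1703) against 2143 (1154) for 12-18hpi against 6-12hpi, 4443 (2181) against 3441 (2097) for 0-6hpi against MII and 6424 (3279) against 7126 (4537) for 12-18hpi against MII. Higher calls with total count scaling were 2747 of 3509 against 2097 of 3441 for 0-6hpi against MII, 905 of 2082 against 1154 of 2143 for 12-18hpi against 6-12hpi, 4900 of 7105 against 3412 of 7365 for 24-30hpi against 18-24hpi, 3352 of 10329 against 4653 of 10064 for 48-54hpi against 30-36hpi, 4465 of 7240 against 3511 of 7051 for 70-76hpi against 48-54hpi and 7585 of 12216 against 6335 of 12493 for 30-36hpi against MII. For 0-6hpi against MII they were 1804 of 3649 against 2097 of 3441 with DESeq2 size factors and 2099 of 4320 with DESeq2. At 90-96hpi depth limits what can be said: Zp1, Zp2, Zp3, Astl and Izumo1r had 0 to 18 reads per library, and the genotype set had 2 or 3 libraries a group.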

Other observations

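GPI anchor genes, which serve JUNO and many other surface proteins, divided into groups with different courses. Pigf, an ethanolamine phosphate transferase partner, measured 565 ± 33.7 CPM in the oocytes, 519 ± 23.7 CPM by 18-24hpi and 51.1 ± 1.16 CPM at 30-36hpi. Pigp, a subunit of the first enzyme of the pathway, read 117 ± 7.05 CPM, 101 ± 3.13 CPM and 14.8 ± 1.31 CPM in the same groups, and Piga, the catalytic subunit of that enzyme, 123 ± 6.25 CPM, 118 ± 13.6 CPM and 55.7 ± 7.19 CPM. Dpm3, a subunit of the mannose donor synthase, went from 2.64 ± 0.498 CPM in oocytes to 63.3 ± 7.33 CPM at 90-96hpi. At 30-36hpi against MII, 17 rose and 7 fell of 26 tested in this list (median 1.52, all genes 0.01, with 39.0% higher and 37.9% lower), a larger number of rises than at 90-96hpi. The 3 genes of the list called lower in the libraries labelled KO were Pgap2 (32.1 ± 7.31 against 89.6 ± 19.9 CPM, adjusted p = 0.0171), Pigh (7.08 ± 3.46 against 29.6 ± 1.19 CPM, adjusted p = 0.0138) and Pigw (1.27 ± 0.737 against 7.55 ± 1.35 CPM, adjusted p = 0.0162), named after their values were seen. With the mitochondrial share as a covariate edgeR called 0 of the 26, with 1 at an unadjusted p below 0.05. Without KO replicate 2 it called no gene at all.

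Markers of other cells gave values in windows where those cells are not named. Cyp19a1, the aromatase of granulosa cells, read 143 ± 8.82 CPM in MII oocytes, 97.1 ± 12.2 CPM at 12-18hpi and 1.14 ± 0.0277 CPM at 30-36hpi, with Amh, Fshr, Lhcgr and Foxl2 at 0 in the oocytes. At 12-18hpi 15 of the 16 cumulus and granulosa markers were detected, with just Amh at 0. Against MII, 3 were called higher and 1 lower there, of 8 tested (median 2.76, all genes 0.33, with 27.9% higher and 15.9% lower). Ldhc, a lactate dehydrogenase of male germ cells, was at 1.59 ± 0.425 CPM in the oocytes and highest at 30-36hpi, with 24.6 ± 0.597 CPM.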
